A study of Mus musculus with 2 samples.

Results

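Ribosomal protein pseudogenes were examined in CH12.LX, an immortalized mouse B cell lymphoma line of strain B10.H-2aH-4bp/Wts origin. A gene was taken when its GENCODE mouse symbol begins with Rpl or Rps and ends in -ps with or without a number, and the parent is the gene named by the symbol before -ps. This rule found 257 genes among the 43346 genes of the deposited M4 tables (M2, M3 and M4 are successive GENCODE annotation releases), in 57 families, and 256 of them had a parent in the tables. Annotation M21, which supplied the symbols, holds 300 such genes, and 43 of them have no row in the M4 tables. Of the 257, 245 are annotated as processed pseudogenes, 6 as transcribed processed pseudogenes and 6 as protein-coding, and 251 have a single exon. Total RNA was sequenced in 2 libraries, labelled as biological replicates of the same line with separate biosample records, so there was no treatment or genotype to compare. An immortalized line is not a normal B cell, and how the cells were cultured is not described in the labels.

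Ribosomal proteins build the small and the large subunit of the ribosome, and their mRNAs are short and abundant in growing cells. Processed pseudogenes arise when an mRNA is copied into DNA by the reverse transcriptase of a mobile element and the copy is inserted elsewhere in the genome. Such a copy lacks introns and usually lacks a promoter, and it gathers substitutions with age. Ribosomal protein genes have left very many of these copies in mammalian genomes. A short read from the mRNA of the parent can match a young copy equally well, and an estimated count divides such reads among the genes they match.

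Depth was 49278383 expected counts for replicate 1 and 55950529 for replicate 2. All 7 B cell markers examined reached 1 TPM (the deposited length-scaled level, a read count divided by transcript length and brought to the same total in each library) in both libraries, at a summed 711 and 730 TPM. Of 10 markers of other cell types, Cd3g and Epcam reached 1 TPM, and the 10 summed to 6.36 and 5.56 TPM. The libraries differed by more than counting error, with a chi-square of 172 per degree of freedom over 15438 genes.

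Most ribosomal protein pseudogenes carried little or no assigned RNA, and a few carried a great deal. Of the 257, 51 (19.8%) reached 1 TPM in both libraries and are called detected here. Another 103 had 0 expected counts in both, which at a floor of 3 counts allows 0.0376 to 1.77 TPM in replicate 1 and 0.0347 to 2.33 TPM in replicate 2, depending on length. By the same threshold 240 of 5281 other processed pseudogenes (4.54%) and 49 of 894 other genes with a -ps symbol (5.48%) were detected, beside 84 of 86 ribosomal protein genes (97.7%) and 9571 of all 43346 genes (22.1%). These shares are descriptions, since genes are not replicates. The deposited lower credibility bound of TPM lay above 0 for all 257, those with 0 counts included, so it did not separate detected from undetected members. A lower bound of at least 1 TPM in both libraries was met by 44.

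The pseudogenes together held 2066 TPM in replicate 1 and 2827 TPM in replicate 2, a mean of 2446 ± 539 TPM (SD, n = 2). This was 0.161% and 0.216% of expected counts. Their parents held 5.33% and 5.23% of counts. The highest pseudogene alone gave 22.8% and 21.9% of the summed pseudogene TPM, and the 20 highest gave 87.6% and 87.3%. Large subunit copies made up 155 members, of which 29 were detected, and small subunit copies 102, of which 22 were detected. A short list of high genes thus stood above a long tail near 0.

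Rpl27-ps3, a copy of the large subunit gene Rpl27 on chromosome 18 (6332632 to 6333042, GRCm38), ranked first, with 471 TPM (bounds 457 to 481) in replicate 1 and 620 (bounds 604 to 630) in replicate 2. Rpl27 itself stood at 570 and 517 TPM. The pseudogene was thus at 82.5% of the parent in replicate 1 and 120% in replicate 2, and it was the only detected member to exceed its parent in either library. In M21 its sequence is identical to Rpl27 over the aligned length, and every stretch of 50 bases in it also occurs in another gene. The part of shared reads in its level was not tested. Next was Rpl31-ps8, a copy of Rpl31, whose protein lies near the exit of the peptide tunnel, at 253 and 347 TPM against 544 and 490 TPM for Rpl31. Its level was 46.5% and 70.9% of the parent. Rpl38-ps2, a copy of the large subunit gene Rpl38, stood at 182 and 161 TPM, which was 13.8% and 12.1% of the parent. It is only 213 bases long, and by expected counts (1089 and 920) its rank among the members was 19 rather than 3. Its effective length, the length left after allowing for fragment size, was 54.2 bases in replicate 1.

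Another 9 large subunit copies were among the 20 highest. Rpl19-ps11 stood at 76.3 and 105 TPM, Rpl10a-ps1 at 70.0 and 110 TPM, and Rpl10-ps3 at 59.3 and 91.0 TPM; Rpl10 is among the last proteins to join the large subunit. Rpl15-ps3 had 55.6 and 84.3 TPM, Rpl14-ps1 36.5 and 54.1 TPM, and Rpl3-ps1 32.7 and 51.6 TPM, the last a copy of a gene whose protein reaches to the peptidyl transferase centre. Every one of these 6 was lower in replicate 1 than in replicate 2 with bounds apart. Rpl23a-ps3 (32.8 and 46.6 TPM), Rpl28-ps1 (26.1 and 47.7 TPM) and Rpl9-ps6 (32.1 and 35.4 TPM) completed the list. Of these 3, only Rpl9-ps6 had overlapping bounds.

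The sequences of the members show how little separates the high copies from their parents. They are reference sequences from the GENCODE M21 transcripts on GRCm38, given 5′ to 3′ in the sense of the parent mRNA, with bases that differ from the parent in capitals, and positions counted from the first base of the parent's start codon. Rpl31-ps8 and Rpl38-ps2 are shown as high members that cannot be told from the parent here. Over positions 1 to 120 Rpl31-ps8 (chr15:90764537-90764656, minus strand) and Rpl31 read alike, as do Rpl38-ps2 (chr6:140746960-140747172, minus strand) and Rpl38 over the whole coding sequence of Rpl38, so no base is in capitals.
Rpl31-ps8: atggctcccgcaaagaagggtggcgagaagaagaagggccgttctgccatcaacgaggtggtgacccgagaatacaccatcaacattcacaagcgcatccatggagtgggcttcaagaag
Rpl38-ps2: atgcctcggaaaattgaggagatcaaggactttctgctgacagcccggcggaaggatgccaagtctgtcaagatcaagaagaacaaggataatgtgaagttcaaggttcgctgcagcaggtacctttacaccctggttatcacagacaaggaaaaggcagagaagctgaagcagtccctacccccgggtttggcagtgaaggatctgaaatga

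Small subunit copies were led by Rps23-ps1, with 109 and 184 TPM in replicates 1 and 2, or 19.6% and 34.3% of Rps23, whose protein sits in the decoding centre. It overlaps an exon of the protein-coding gene Gm5148 on the opposite strand, at 31.4 and 34.9 TPM, and as strand use in counting is not given in the sources used here, reads of the pair cannot be told apart. Rps6-ps4, a copy of the gene for the S6 kinase substrate, had 103 and 146 TPM, which was 13.5% and 19.5% of Rps6. Rps12-ps3 had 84.6 and 131 TPM, and Rps10-ps2 76.3 and 95.6 TPM. These 4 stood above the other small subunit copies in both libraries. Rps15a-ps7 followed at 33.1 and 40.4 TPM, Rps2-ps10 at 27.6 and 42.9 TPM, Rps26-ps1 at 23.7 and 39.3 TPM and Rps19-ps6 at 25.6 and 34.3 TPM. Rps19 and Rps26 are both genes in which loss of a copy causes Diamond-Blackfan anaemia in people.

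**Figure D1:**
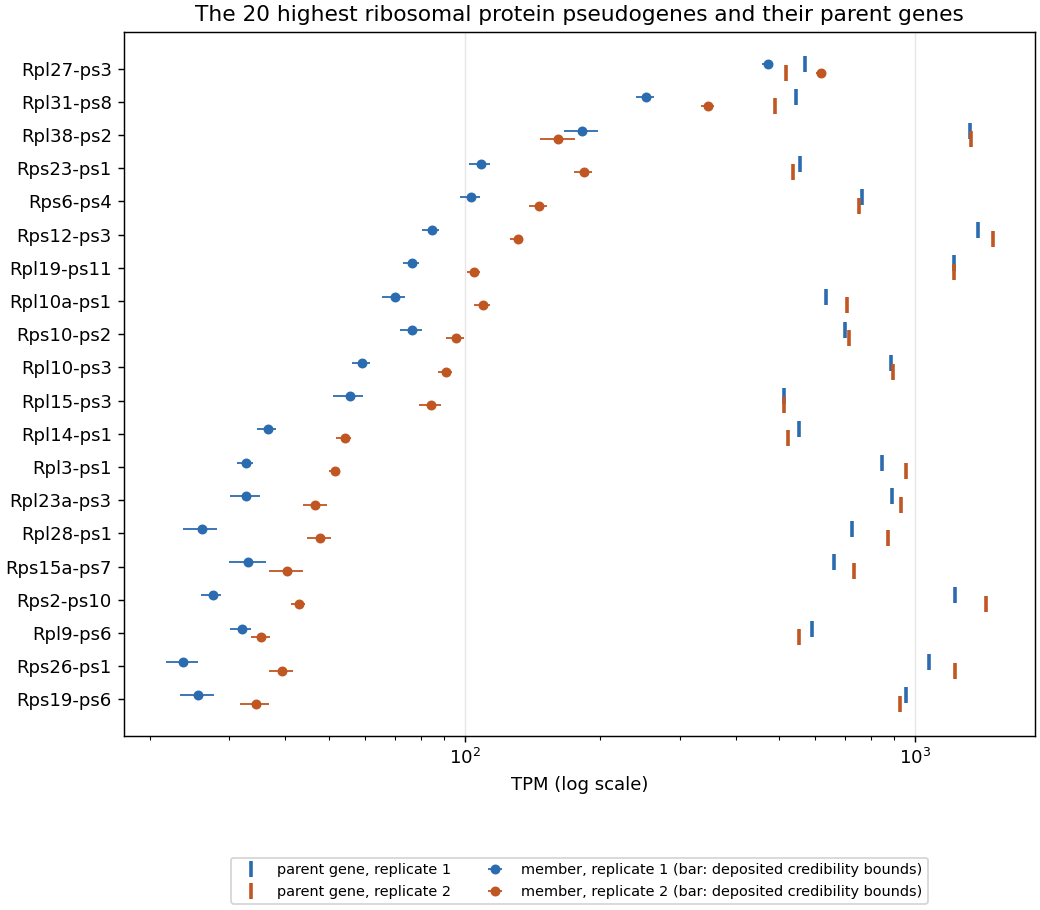
TPM on a log axis of the 20 ribosomal protein pseudogenes with the highest mean, as points for replicate 1 (blue) and replicate 2 (orange) with the deposited credibility bounds as bars, and of their parent genes as vertical ticks. Only Rpl27-ps3 reaches its parent's level, and 19 of the 20 are higher in replicate 2, Rpl38-ps2 being the exception.

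Set against their parents, 8 of the 51 detected members were at 10% of the parent's TPM or more, 26 at 1% to under 10%, and 17 under 1%, with a median of 2.83%. Across members with a parent, the undetected included, the median was 0.00387%. The 5 highest shares of the parent belonged to Rpl27-ps3, Rpl31-ps8, Rps23-ps1, Rps6-ps4 and Rpl15-ps3, the last at 10.9% and 16.5%. The level of the parent did not order the pseudogenes, with a Spearman rho of -0.03 between the mean TPM of member and parent over 256 members. These points share their reads, since counts are divided between member and parent, so the correlation is a description.

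Sequence identity to the parent did order them. Each member was aligned to its parent transcript, and 253 gave an identity over at least 50% of their length. None of 82 members under 95% identity was detected, against 13 of 112 (11.6%) from 95% to under 99% and 38 of 59 (64.4%) at 99% or more. Of 13 members identical to the parent over the aligned length, 12 were detected. The Spearman rho between mean TPM and identity was 0.78 over the 253 members, which share libraries and, within a family, a parent. For 219 members the table's length equals that of the M21 transcript used for the alignment, and among those the counts were 0 of 77, 8 of 93 and 26 of 45.

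How much of a member can be told from every other gene ran the other way. Every stretch of 50 bases of a member was looked for in all other M21 transcripts, on both strands. Of 33 members with no stretch of their own, 19 were detected, and of 79 with up to 50% unique stretches, 30 were. Of 121 with more than 50% but under 100% unique stretches 2 were detected, Rps15-ps2 and Rpl36-ps3, the second chosen for mention after its values were seen. None of 24 whose stretches were all unique was detected, and their highest mean was 0.035 TPM. This holds for stretches of 50 bases: of 96 members whose stretches of 100 bases were all unique 2 were detected, at up to 21.6 TPM, and of 141 at 150 bases 5 were. Read length is not given in the sources used here. With 50 bases, 49 of the 51 detected members are genes in which at least 50% of the stretches occur elsewhere in the transcriptome, and the part of shared reads in their levels was not tested. The stretches are those of M21. For 34 of the 51 the table's length equals that of the M21 transcript, and for the rest the counted sequence differs from the one searched.

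**Figure D2:**
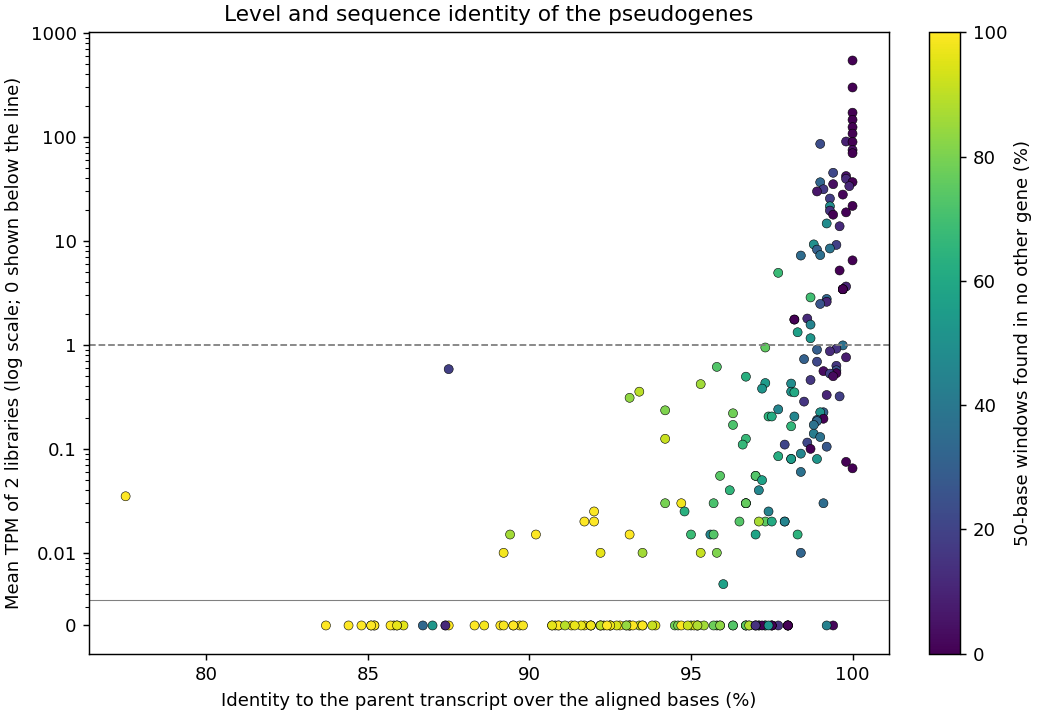
Mean TPM over 2 libraries (log axis, genes at 0 below the grey line) against identity to the parent transcript in percent for the 253 aligned pseudogenes, coloured by the percent of 50-base stretches found in no other gene. Points above the dashed line at 1 TPM lie at 95% identity or more and are mostly dark, that is, with few stretches of their own.

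Full identity did not always go with a high level. Rpl10-ps1 and Rpl10-ps3 are both identical to Rpl10 over their aligned lengths, and Rpl10-ps3, annotated as protein-coding, stood at 59.3 and 91.0 TPM while Rpl10-ps1 stood at 0 and 0.13 TPM. Rpl10-ps1 has no stretch of 50 bases of its own, while 3.89% of those of Rpl10-ps3 are unique. Rpl21-ps15 was at 0 counts in both libraries with 99.4% identity to Rpl21. Both Rpl10-ps1 and Rpl21-ps15 were picked for mention with their values known.

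The Rps12 family, the largest with 22 members, shows the same range. Rps12-ps3, on chromosome 19 within an intron of Pdzd8 on the opposite strand and annotated as protein-coding, is identical to Rps12 over its length, and it alone in the family was detected. Rps12-ps11 to Rps12-ps15 are 5 copies on chromosome X with one and the same sequence, 98.0% identical to Rps12, and all were assigned 0 counts in both libraries. Their stretches of 50 bases all occur in other transcripts, 36.6% of them in Rps12, so an assigned 0 does not show that they were not transcribed. The posterior SD was 650% to 1200% of the posterior mean in replicate 2 and had no such value in replicate 1. At 0 expected counts this percentage does not bear on whether these 5 copies were transcribed. Their 132-codon frame is as long as that of Rps12. Positions 16 to 135 of the coding sequence, the 120 bases with the most differences, are shown to set the copy assigned 0 counts beside the high one, a pair chosen after the values were seen. Rps12-ps3 (chr19:59322386-59322505, plus strand) has no difference here, and Rps12-ps11 (chrX:124470223-124470342, minus strand) has 5: T21A, C45G, C72A, C97T and C135T.
Rps12: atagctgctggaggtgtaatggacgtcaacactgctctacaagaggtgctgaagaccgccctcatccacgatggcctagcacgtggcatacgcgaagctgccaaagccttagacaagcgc
Rps12-ps3: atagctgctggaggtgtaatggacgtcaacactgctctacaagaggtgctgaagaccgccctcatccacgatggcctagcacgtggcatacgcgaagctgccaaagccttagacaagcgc
Rps12-ps11: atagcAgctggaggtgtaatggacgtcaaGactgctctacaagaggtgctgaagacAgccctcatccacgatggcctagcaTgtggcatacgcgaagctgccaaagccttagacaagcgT

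There were 18 families of 5 or more members. Rpl31 had 1 detected of 21, Rpl23a 1 of 14, Rpl21 1 of 12 and Rps19 3 of 14. Of the 3 Rps19 copies, Rps19-ps1 and Rps19-ps2 share a sequence of 438 bases. Each was assigned 48.6 counts in replicate 1 and 63.9 in replicate 2, so the pair is not 2 separate measurements. Rpl9 and Rpl17 each had 3, of 8 and 7, while none was detected of 9 Rpl30, 8 Rpl7a and 5 Rpl13 copies. These counts hold for M4. The Rpl7a copies summed to 0.99 TPM in replicate 1 and 1.39 TPM in replicate 2 there. With M3 they summed to 2.34 and 54.5 TPM, and with M2 to 41.6 and 57.6 TPM. Copies of Rpl35a, a large subunit gene, were detected most often, at 4 of 6. Chromosome X carries 35 members, more than any other chromosome, and 3 of them were detected.

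**Figure D3:**
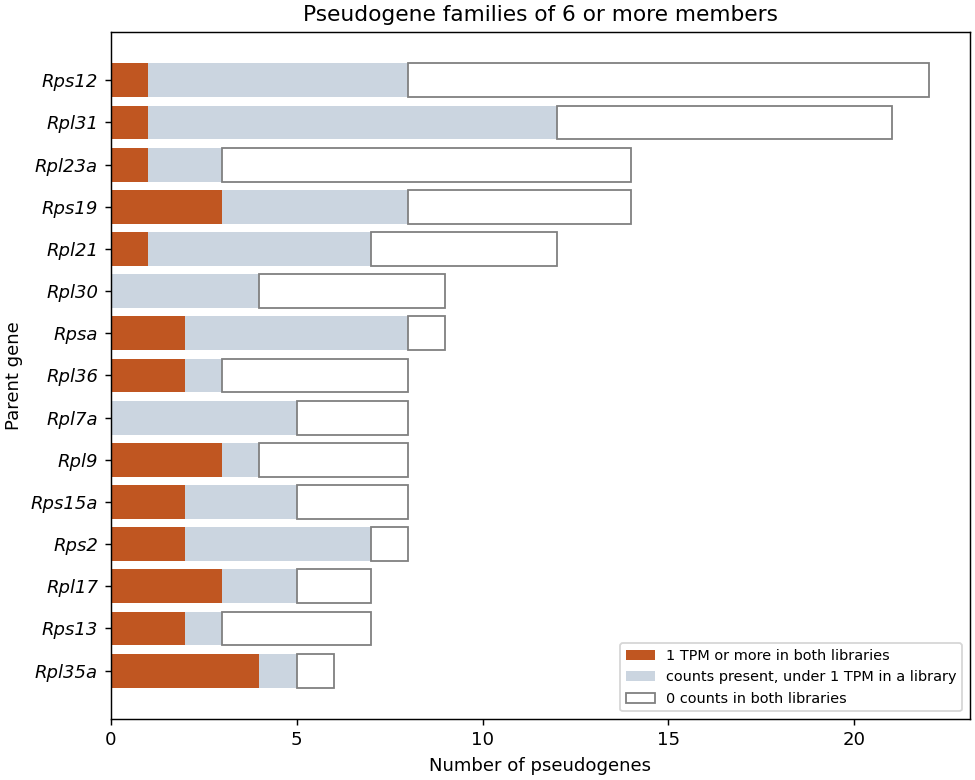
Number of ribosomal protein pseudogenes in each family of 6 or more members, by parent gene, split into those at 1 TPM or more in both libraries (orange), those with some counts below that (grey) and those with 0 counts in both (white). Rps12 and Rpl31 have the most members and 1 detected member each, and Rpl35a has 4 of 6 detected.

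The 4 detected Rpl35a copies cannot be separated from each other. Rpl35a-ps2, Rpl35a-ps3, Rpl35a-ps4 and Rpl35a-ps6 lie on chromosomes 1, 17, 2 and 5, share one sequence of 333 bases, and were each assigned 61.2 counts in the first library and 74.5 in the second (3.18 and 3.69 TPM). The posterior SD of these counts, a deposited measure of how surely reads were assigned, was 65.5% to 96.1% of the posterior mean in replicate 2. Values this alike in 4 loci of one sequence are not 4 separate measurements. One base sets them apart from Rpl35a, G156A, at the end of the stretch shown (Rpl35a-ps2, chr1:181242165-181242284, minus strand, positions 37 to 156), which was chosen to show it.
Rpl35a: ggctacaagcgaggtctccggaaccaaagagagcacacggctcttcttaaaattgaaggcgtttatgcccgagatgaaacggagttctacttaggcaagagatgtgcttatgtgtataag
Rpl35a-ps2: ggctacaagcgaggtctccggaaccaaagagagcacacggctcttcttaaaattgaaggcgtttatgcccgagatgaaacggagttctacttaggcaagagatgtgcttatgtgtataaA

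The counts assigned with the least uncertainty belonged to Rps15-ps2, a copy of the small subunit gene Rps15 on chromosome 6. It had 121 and 196 expected counts with a posterior SD of 0.0826% and 0.0408% of the posterior mean, and stood at 3.92 TPM (bounds 3.23 to 4.63) and 5.96 TPM (bounds 5.16 to 6.82), or 0.353% and 0.467% of Rps15. It is 97.7% identical to Rps15 with 10 substitutions, keeps a frame of 145 codons like its parent, and has 67.9% unique stretches. Its level was 3.99 and 6.11 TPM with M3 but 8.01 and 14.1 TPM with M2, so the small posterior SD holds within the M4 table and does not cover the choice of annotation. The next surest by this measure among members at 50 counts or more were Rpl27-ps3, Rpl17-ps8, Rps12-ps3 and Rpsa-ps10. Rps12-ps3, with a posterior SD of 1.09% and 0.906%, has no unique stretch of 50 bases, and its table length of 494 bases is that of the M21 transcript. Rpl27-ps3 likewise has no unique stretch of 50 bases in M21. It is 475 bases long in the table and 411 in M21, so part of the sequence behind its counts was not examined here. The 120 bases of Rps15-ps2 with the most differences (chr6:58017620-58017739, plus strand, positions 115 to 234) hold 6: A159G, G187A, A192G, A201G, T219C and G234A.
Rps15: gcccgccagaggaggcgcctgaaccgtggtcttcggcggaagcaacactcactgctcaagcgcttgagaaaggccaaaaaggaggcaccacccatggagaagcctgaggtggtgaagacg
Rps15-ps2: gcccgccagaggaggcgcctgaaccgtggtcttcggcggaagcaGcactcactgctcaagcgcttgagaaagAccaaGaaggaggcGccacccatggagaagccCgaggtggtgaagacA

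A preserved reading frame was commoner among detected members. A frame was counted from a start codon to a stop codon within the transcript, so a frame running past the transcript's end was not counted. Of 111 members whose longest such frame spans at least 90% of the parent's codons, 38 were detected (34.2%), against 13 of 144 (9.03%) with a shorter frame. Members with the longer frame were also nearer to the parent in sequence, at a median identity of 98.4% against 95.1%, and the part of identity in this difference was not tested. High copies with a short frame by this rule exist, since the longest frame of Rps23-ps1 has 15 codons where Rps23 has 143, and that of Rpl3-ps1 has 61 where Rpl3 has 403. Overlap with another gene went with a somewhat higher share, at 7 of 26 on the same strand and 14 of 53 on the opposite strand against 30 of 178 with no overlap.

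Between the libraries the detected pseudogenes moved together. Of 51 detected members 47 were higher in replicate 2 than in replicate 1 by TPM, at a median log2 ratio of 0.51, and the 4 lower ones were Rpl38-ps2, Rps13-ps2, Rpl9-ps4 and Rpl21-ps8, the last 3 named with their values known. The 47 include the 4 identical Rpl35a copies and the identical pair Rps19-ps1 and Rps19-ps2, so they are not 47 separate measurements. These 6 had a posterior SD over 20% of the posterior mean and a median log2 ratio of 0.21. Credibility bounds were apart and higher in replicate 2 for 31 of the 51 and apart and lower for 0, beside 18.5% higher and 30% lower of all 9571 detected genes. Their 35 parents had a median log2 ratio of -0.00, from -0.31 to 0.27, with 17 higher in replicate 2. In 47 of 51 the member's ratio was larger than that of its own parent, by a median of 0.47 on the log2 scale. Other processed pseudogenes were higher in 148 of 240 at a median of 0.19, and all detected genes in 4109 of 9571 at a median of -0.05. These are ratios of 1 bulk library to another, in which fewer expressing cells and less RNA per cell cannot be told apart, and what differed between the libraries was not tested. Length less effective length, which moves with the fragments sequenced, was 158.8 bases in replicate 1 and 165.7 in replicate 2. By scaled counts, the 23 tested members with more than 50% unique stretches were higher in 16, at a median log2 count ratio of 0.42. Only 2 of these 23 were detected. All 101 tested members were higher in 80, at a median of 0.49, and all 15438 tested genes had a median of 0.01.

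**Figure D4:**
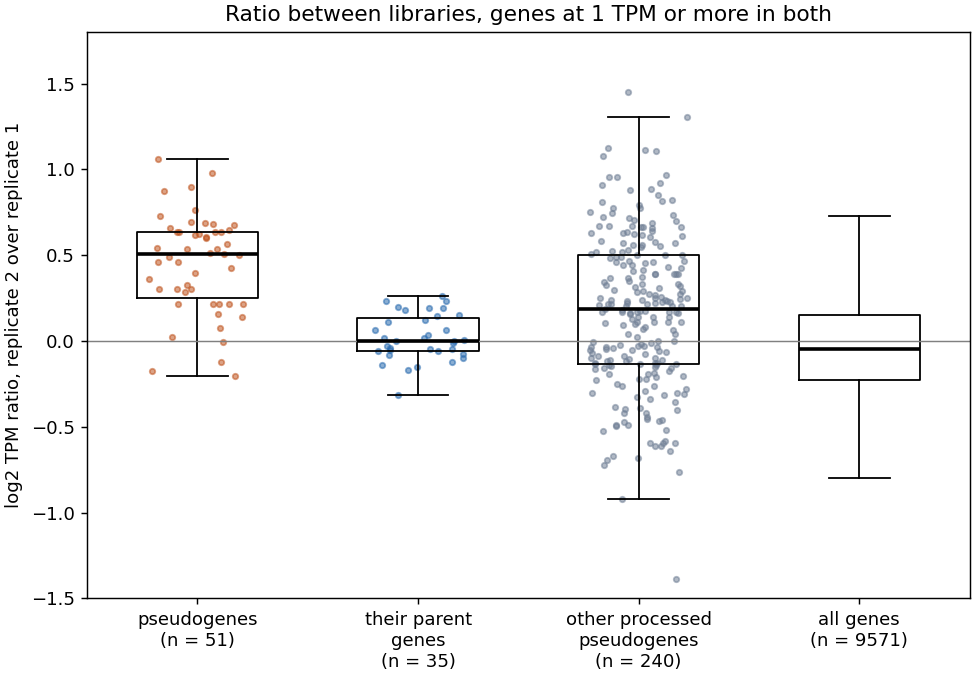
Log2 ratio of TPM in replicate 2 over replicate 1 for genes at 1 TPM or more in both libraries, as points and boxes (median, quartiles, whiskers to 1.5 times the interquartile range) for the 51 pseudogenes, their 35 parents and 240 other processed pseudogenes, and as a box alone for all 9571 genes. The pseudogenes have a median of 0.51 and the parents of -0.00, and 2 of the other pseudogenes lie beyond the axis.

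Few single members passed the test between libraries with a ratio of at least 2. The exact conditional binomial test, adjusted over 15438 genes, called 7 of 101 members with at least 10 summed counts (156 had fewer) (6.93%), 6 higher and 1 lower in replicate 2, beside a background of 4.77% of all genes, 3.71% higher and 1.07% lower. It compares these 2 libraries and covers counting error only. Without the ratio, 41 members were higher and 2 lower, 42.6% in all, beside 50.4% of all genes, 25.2% higher and 25.1% lower. Rpl9-ps7, a copy of the gene for a protein at the base of the ribosomal stalk, had 276 counts in replicate 1 and 619 in replicate 2 (exact binomial test, adjusted p = 5.03e-25), a log2 TPM ratio of 1.06 where Rpl9 had -0.10. Rpl36-ps2 had 8.40 and 26.0 counts (exact binomial test, adjusted p = 0.0127). For these 2 the bounds were apart.

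In the other 5 the bounds of the libraries overlapped. Rpl30-ps10 had 0 counts in replicate 1 and 24.5 in replicate 2, and Rpl30-ps9 0 and 21.8, both copies on chromosome X whose posterior SD was 65.7% and 66.9% of the mean in replicate 2. Rps2-ps13 had 16.2 and 40.2 counts. None of the 20 highest members was called with the ratio of 2, as their log2 TPM ratios ran from -0.18 to 0.87.

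Several of the highest members differed in level between annotation releases, and for Rpl31-ps8 and Rpl15-ps3 the parent differed in the opposite direction. The tables of M2, M3 and M4 come from the same libraries but differ in total rounded counts. With M2, M3 and M4 the totals were 44833278, 44811588 and 49278361 in replicate 1. In replicate 2 they were 50569794, 50548803 and 55950517. What led to the shifts between releases was not tested. Rpl31-ps8 in replicate 1 stood at 808 TPM with M2, 407 with M3 and 253 with M4, while Rpl31 stood at 144, 290 and 544 TPM. In replicate 2 the pseudogene gave 965, 468 and 347 TPM and the parent 115, 289 and 490 TPM. The pair thus changed order between releases, the pseudogene being above the parent with M2 and M3 and below it with M4. Rpl15-ps3 in replicate 1 went from 533 TPM with M2 to 58.0 with M3 and 55.6 with M4, and Rpl15 from 272 to 510 and 512 TPM.

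Other members were higher with the later releases. Rps23-ps1 was absent from the M2 table and stood at 52.5 TPM with M3 and 109 with M4 in replicate 1, and in replicate 2 at 44.7 and 184 TPM. Rps10-ps2 was also absent from M2, at 27.0 and 76.3 TPM in replicate 1. Rpl17-ps8 went from 1.70 TPM with M2 to 26.4 with M3 and 25.9 with M4. Of the 51 members detected with M4, 2 moved by more than 1.5 times with M3, both lower there, and of 49 listed in M2 17 did, 12 of them higher. Rpl27-ps3, the highest, moved little, at 479, 495 and 471 TPM in replicate 1. A level of a single high copy therefore holds for the release it was taken from.

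**Figure D5:**
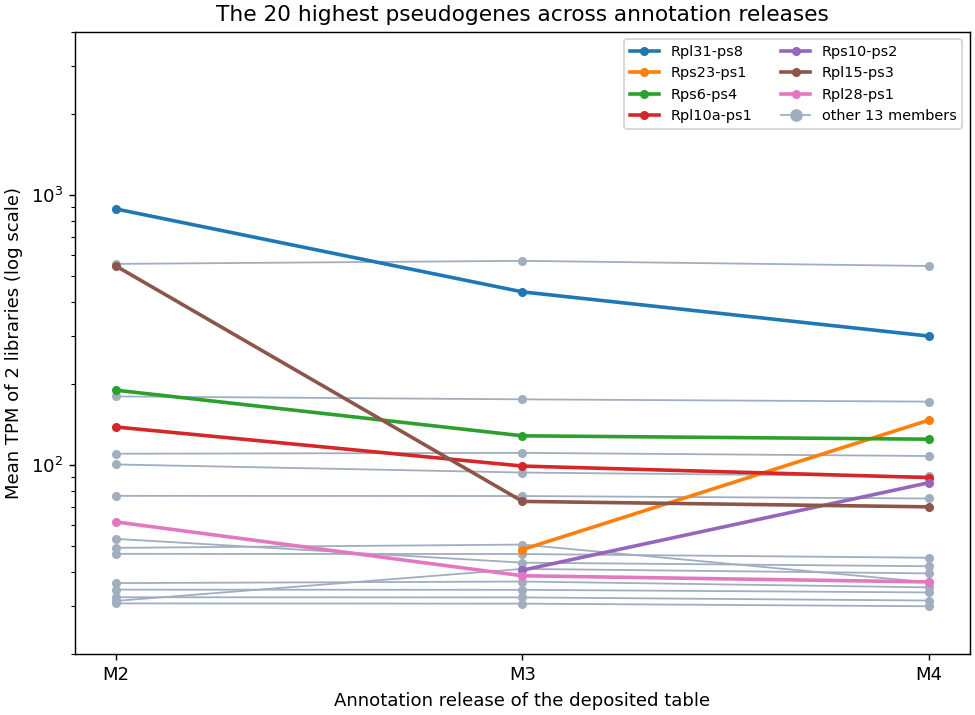
Mean TPM over 2 libraries (log axis) of the 20 highest pseudogenes under the 3 annotation releases on the horizontal axis, each line 1 gene. The 7 whose highest and lowest means differ by more than 1.5 times are coloured, among them Rpl31-ps8 and Rpl15-ps3, which fall from M2 to M4, and Rps23-ps1 and Rps10-ps2, which begin at M3 and rise.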

How the data were processed

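The authors deposited gene tables on assembly mm10 for each library, for GENCODE M2, M3 and M4, per the manifests; the aligner and quantifier were not given in the sources used here. Expected counts are the authors' estimated counts per gene, per the file headers, and TPM and FPKM are the authors' length-scaled values, per the file headers. The posterior counts and SD, posterior mean TPM and credibility bounds were used as deposited; no source used here gives the credibility level. M4 was the main table. The 26248 rows with numeric identifiers (5.68e-05% and 5.36e-05% of counts) and 97 spike-in rows were left out. Symbols, coordinates and sequences came from GENCODE M21 on GRCm38, the same assembly, and 42462 of 43346 genes matched by identifier without version.

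Members and gene lists were chosen with earlier results of these data known. Named are the 20 members with the highest mean TPM, the 5 with the highest percent of the parent, those called between libraries, and the 5 with the smallest relative posterior SD at 50 counts or more, with parents and families of 5 or more; others are marked in the text, and some that the rule takes are left unreported. Expected counts were rounded, scaled with TMM (edgeR 4.0.16, R 4.3.3), and compared by a two-sided exact conditional binomial test with Benjamini-Hochberg adjustment at 0.05 over genes with at least 10 summed counts. It compares libraries, which may differ only technically. In simulated data for replicate 2 against 1 over 15471 genes, it called 85.9% of genes changed 4-fold and 0.00655% of unchanged genes. The simulated counts held counting error only, while these libraries differed by more. The 0.00655% is therefore not the rate of false calls in these data. Members were aligned to the parent's transcript in both orientations with Biopython 1.88. Alternatives were other releases, thresholds, scalings (DESeq2 1.42.0 size factors, library totals), FPKM, posterior means and leaving out each replicate. Other steps used Python 3.11.15, numpy 2.4.6, pandas 2.3.3, scipy 1.17.1 and matplotlib 3.10.9.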

Additional observations from a re-analysis of the deposited data

How the results depend on the processing

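The count of 51 detected members lay between 51 and 56 when either replicate was used alone, and became 96 at 0.1 TPM, 28 at 10 TPM and 78 with TPM rescaled to protein-coding genes, settings that shift the threshold itself. The 257 with a lower bound above 0 remained 257 with either replicate and fell to 44 at a bound of 1 TPM. Summed TPM ran from 2066 to 2827 with 1 replicate, and was 3629 with M2 and 10060 rescaled. The median percent of the parent ran from 0.00313 to 0.00511 with 1 replicate, and was 0.00546 with M3, 0.00552 with M2, 0.0119 from posterior means, 0.00192 from expected counts and 0.183 over members at 0.1 TPM or more. Calls between libraries numbered 26 at a ratio of 1.5. Bounds apart with a TPM ratio of at least 2, and no test, gave 2. The shares of all genes under these settings were not counted, so neither number sets the members apart from other genes. Alternatives added after the data were seen gave 76 of 96 members higher in replicate 2 at 0.1 TPM and 27 of 28 at 10 TPM, 25 detected at 99% identity or more at 10 TPM, and 5 detected under 95% identity at 0.1 TPM. Of the named members' levels, 8 of 28 moved with M2, 4 of 30 with M3 and 2 of 30 with posterior means. Here a level moved when it changed by more than its SD over the 2 libraries, not by 1.5 times. Depth limits members near 0, and intervals and floors cover counting error only.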
